A study of Homo sapiens with 8 samples.

Results

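The members are the 8704 accessible regions on human chromosomes 16, 17 and 20, out of 133028 regions in all. They were obtained by merging 8 lists of ATAC-seq peaks wherever peaks shared at least 1 bp, and keeping the regions on the 3 chromosomes (hg19). Chromosome 16 held 3263 of them, chromosome 17 held 3036 and chromosome 20 held 2405. The chromosomes were selected on measured values of these same libraries, namely the excess of gained over lost peak calls in the clones edited at SETD2. Every comparison of a clone with its control below is therefore a description and carries no test. The comparison of the 2 cell lines was not used to choose the chromosomes and was tested. It includes control and, where a line is taken as a whole, clone libraries that the choice used. Its tests are therefore not independent of that choice.

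ATAC-seq uses the Tn5 transposase, which inserts sequencing adapters where DNA is not wrapped in nucleosomes, so that promoters, enhancers and other open sites appear as peaks. SETD2 is the methyltransferase that places the trimethyl mark on lysine 36 of histone H3 along the bodies of transcribed genes. Gene-rich chromosomes carry many promoters per unit of length and replicate early, and their chromatin tends to lie in the open compartment of the nucleus. In RefSeq (GRCh38.p14), chromosome 17 had 14.04 protein-coding genes per Mb, chromosome 16 had 9.47 and chromosome 20 had 8.35, which ranked 2, 4 and 6 among 24 chromosomes. Chromosome 20 stood close to chromosome 1, which had 8.28 genes per Mb and ranked 7.

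The study compared SETD2 heterozygous knockout clones with unedited cells in 697 and KOPN-8, both established B cell precursor acute lymphoblastic leukaemia lines, and each of the 4 groups had 2 libraries. The 697 control carried an empty guide vector and the 697 clone was BM_B. The KOPN-8 control carried an empty guide vector and the KOPN-8 clone was BA. Controls were labelled SETD2 wild type, and all cells were grown without a further treatment named in the labels. Each edited group was 1 clone, while the vector controls are not labelled as clones, so a difference between them cannot be told apart from any other difference of that clone. The labels name the libraries of a group biological replicates without naming their cultures, so the p-values below measure only the spread between these libraries, which may be technical. In a bulk library, a region called in one group and not in another cannot be told apart from a region open in more of its cells.

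The lists held 57154 to 76495 peaks, and a library called 54486 to 74014 of the merged regions. A call is a region in which the library has at least 1 peak, and values are given as shares of all calls of a library so that lists of different length can be compared. Read depth is unknown. On the 3 chromosomes the libraries called 3118 and 3905 regions in the 697 controls, 3710 and 4649 in clone BM_B of 697, 5485 and 5048 in the KOPN-8 controls, and 5761 and 5287 in the KOPN-8 clone. In 697 the second library of each group had the longer list.

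The 3 chromosomes took a larger share of calls in KOPN-8 than in 697. The share was 5.72% and 5.80% in the 697 controls against 6.17% and 6.28% in the 697 clone. It was 8.10% and 8.32% in the KOPN-8 controls against 8.89% and 8.53% in the KOPN-8 clone. All 4 KOPN-8 libraries lay above all 4 libraries of 697, and within each line both clone libraries lay above both controls. The mean was 5.995% ± 0.273 (SD, n = 4) in 697 and 8.46% ± 0.339 (SD, n = 4) in KOPN-8, a difference of 2.46 percentage points (exact permutation test, two-sided, p = 0.0286, the smallest that 4 against 4 libraries can give). This test compares the libraries of 2 cell lines, each line being 1 biological source. It pools the control and clone libraries of a line, which are not replicates of 1 condition. The clone took 1.08 times the share of its control in 697 (1.06 to 1.10 over the 4 pairs of libraries) and 1.06 times in KOPN-8 (1.03 to 1.10). Shares add up to a fixed total, and the KOPN-8 clone took 0.778 times the share of its control on chromosome 8 and 0.815 times on chromosome 13. With shares taken outside chromosomes 8, 13, 19 and Y, the ratio of the members was 1.08 in 697 and 1.04 in KOPN-8.

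The excess in KOPN-8 fell on chromosomes 17 and 20. Of 24 chromosomes 20 passed this test, 41.7% of the 24 higher and 41.7% lower in KOPN-8, so that passing is not particular to these. Chromosome 17 took 1.95% ± 0.0783 of calls in 697 and 3.17% ± 0.137 in KOPN-8 (SD, n = 4 each, exact permutation test, adjusted p = 0.0343 over 24 chromosomes). Chromosome 20 took 1.35% ± 0.0948 and 2.44% ± 0.0978 (SD, n = 4 each, exact permutation test, adjusted p = 0.0343). Chromosome 16 took 2.69% ± 0.118 and 2.84% ± 0.110, which did not pass (SD, n = 4 each, exact permutation test, adjusted p = 0.125). Between controls alone, KOPN-8 had 1.62 times the share of 697 on chromosome 17, 1.86 times on chromosome 20 and 1.06 times on chromosome 16. Per Mb spanned by regions, the 697 controls called 14.3 regions on chromosome 17 and 12.4 on chromosome 20, and the KOPN-8 controls called 24.3 on each. On chromosome 16 they called 17.5 and 19.6 per Mb. Over 23 chromosomes without Y, Spearman's rho of gene density with calls per Mb was −0.35 in the 697 controls and 0.43 in the KOPN-8 controls. These points share libraries, and the shares of a library add up to a fixed total, so the values are descriptions.

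**Figure D1:**
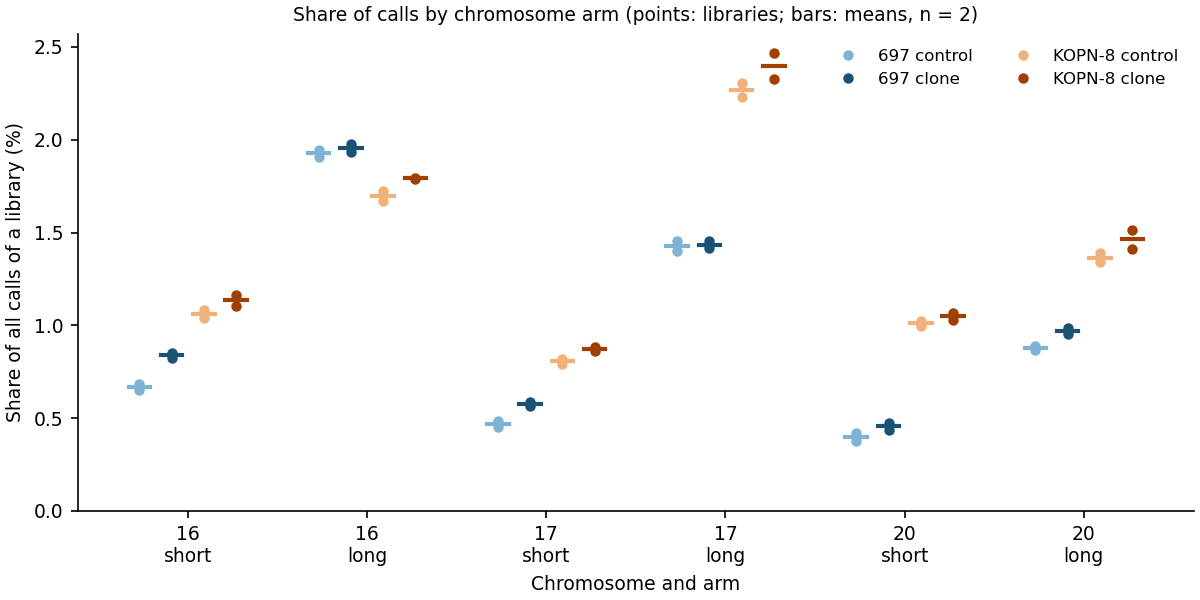
Share of all calls of a library (vertical axis, %) on each arm of chromosomes 16, 17 and 20, for the control and clone libraries of 697 and KOPN-8; points are libraries and bars are means of 2. On the short arm of chromosome 16, 697 had 0.681% and 0.651% in the controls against 0.823% and 0.851% in the clone, and the long arm of chromosome 16 is the one arm where KOPN-8 lies below 697.

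The arms of a chromosome did not behave alike. They were divided at the longest stretch without a region, which holds the centromere and spans chr16:35145692-46516716, chr17:22180451-25363108 and chr20:25975556-29523704. On the short arm of chromosome 16 the KOPN-8 controls had 1.59 times the share of the 697 controls, and on the long arm 0.881 times. The long arm took 1.95% and 1.91% of calls in the 697 controls, 1.98% and 1.93% in clone BM_B of 697, 1.67% and 1.73% in the KOPN-8 controls against 1.80% and 1.79% in the KOPN-8 clone. The 4 KOPN-8 libraries lay below the 4 libraries of 697 there and above them on the short arm (exact permutation test, two-sided, p = 0.0286 for either arm, n = 4 per line). The arms of chromosomes 17 and 20 gave the same unadjusted value, the smallest that 4 against 4 libraries can give. The small difference of chromosome 16 as a whole was thus made of a short arm richer in calls in KOPN-8 and a long arm richer in 697. On chromosome 17 the ratio of controls was 1.72 on the short arm and 1.59 on the long arm, and on chromosome 20 it was 2.54 and 1.56.

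In the 697 clone the ratio to the control was larger on the short than on the long arm of chromosomes 16 and 17. The clone had 1.26 times the share of its control on the short arm of chromosome 16 and 1.01 times on the long arm. The ratio was 1.23 on the short and 1.00 on the long arm of chromosome 17, where the long arm was not uniform, as its windows show below. On chromosome 20 it was 1.15 and 1.11, with overlapping ranges over pairs of libraries (1.04 to 1.26 and 1.08 to 1.14). In KOPN-8 the 6 arms differed little from each other, with ratios of 1.07 and 1.06 on chromosome 16, 1.08 and 1.06 on chromosome 17, and 1.04 and 1.07 on chromosome 20 (short arm first). The plot of shares by arm shows these values library by library.

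The 3 chromosomes were then read in windows of 2 Mb. Of 113 windows with a region, 108 held at least 20 regions and were described, 38 on chromosome 16, 40 on chromosome 17 and 30 on chromosome 20. They held 8665 of the 8704 regions. The 5 windows left out lie at 6 to 8, 32 to 34 and 90 to 92 Mb on chromosome 16, 22 to 24 Mb on chromosome 17 and 28 to 30 Mb on chromosome 20, with 3 to 12 regions each. A window was counted as higher in a clone when both clone libraries had a larger share of calls than both controls and the ratio of mean shares was at least 1.2, and as lower in the reverse case. The values are calls per 10000 calls of the library.

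The 697 clone was higher in 31 of the 108 windows (28.7%) and lower in 6 (5.56%), where 12.6% and 10.7% of 1413 windows of the genome were called higher and lower. Chromosome 16 held 12 of the 31, chromosome 17 held 11 and chromosome 20 held 8. The median ratio was 1.10 over the 108 windows and 0.999 over all windows. The rise, summed over windows as the gain in mean calls per 10000 where the clone was above its control, was spread over many windows. The 20 windows with the largest rise were needed to hold 50% of it, and the 31 windows called higher held 54.7% of it. On chromosome 16, 11 of the 12 lay on the short arm, and the 10 windows from 12 to 32 Mb were all called. On chromosome 17, the 11 lay between 2 and 40 Mb, and none of the 20 windows from 42 to 82 Mb was called higher. The limit at 42 Mb was placed after the windows had been seen. Between 0 and 42 Mb chromosome 17 took 0.786% and 0.824% of calls in the 697 controls against 0.983% and 1.01% in the clone, a ratio of 1.24. Between 42 and 82 Mb it took 1.07% and 1.12% in the controls against 0.995% and 1.03% in the clone, a ratio of 0.929, and 4 windows there were called lower. On chromosome 20, 3 of the 8 windows were neighbours from 20 to 26 Mb, next to the centromere. The windows from 58 to 60 and from 60 to 62 Mb were neighbours too, and 4 of the 8 lay on the long arm.

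The highest ratio in the 697 clone was 2.0, in the window from 24 to 26 Mb on chromosome 16. There the 697 controls made 8 and 11 of 39 possible calls and the clone made 17 and 25, which is 1.47 and 1.64 against 2.83 and 3.38 per 10000. Both clone libraries lay above both controls and beside the 2.95 and 3.62 of the KOPN-8 controls. With only the strongest 50% of each list the ratio was 1.14. From 16 to 18 Mb on the same chromosome the values were 1.84 and 1.78 in the controls against 2.50 and 3.65 in the clone (ratio 1.697). From 12 to 14 Mb they were 1.84 and 1.78 against 2.99 and 2.97 (ratio 1.65). The KOPN-8 controls had 5.46 and 4.78 in the first of these windows and 4.87 and 4.78 in the second, above every 697 library.

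On chromosome 17 the leading window ran from 24 to 26 Mb, just past the centromere. It held 1.84 and 1.93 calls per 10000 in the 697 controls against 3.49 and 3.24 in the clone (ratio 1.79). The window from 32 to 34 Mb held 2.02 and 2.23 in the controls against 3.49 and 3.11 in the clone (ratio 1.55). In neither window did the 697 groups overlap. On chromosome 20 the leading window ran from 46 to 48 Mb, with 2.39 and 2.23 in the controls against 3.33 and 3.65 in the clone (ratio 1.51). All of these stayed far below the KOPN-8 libraries in that window, which held 10.5 and 10.4 in the controls against 12.5 and 11.5 in the clone.

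The window with the lowest ratio in the 697 clone ran from 50 to 52 Mb on chromosome 17, inside the stretch that held no window called higher. The 697 controls called 18 and 24 of its 31 regions and the clone 8 and 10, or 3.30 and 3.57 against 1.33 and 1.35 per 10000 (ratio 0.390). The next window, from 52 to 54 Mb, held 4.22 and 4.76 in the controls against 2.16 and 2.70 in the clone (ratio 0.542). From 68 to 70 Mb the 697 controls made 9 and 7 calls and the clone 5 and 6, or 1.65 and 1.04 against 0.832 and 0.811 per 10000 (ratio 0.610). That last value rested on few calls and on control 1, without which it was 0.789, and no counting interval was taken for it. Without clone 2, the count of lower windows was 10.

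The KOPN-8 clone was higher in 3 of the 108 windows (2.78%) and lower in 4 (3.70%), where 5.02% and 14.5% of all windows were called. All 3 higher windows were on chromosome 17. From 76 to 78 Mb the controls held 7.38 and 8.40 calls per 10000 and the clone 10.2 and 9.68 (ratio 1.26). From 16 to 18 Mb they held 11.8 and 12.7 against 15.4 and 14.8 (ratio 1.24), and from 58 to 60 Mb 3.39 and 3.29 against 4.17 and 4.03 (ratio 1.23). Each of the 3 lay close to the ratio of 1.2 that defines a call. With equal list lengths the ratio was 1.12 from 76 to 78 Mb and 1.09 from 58 to 60 Mb, and with the strongest 50% of each list it was 1.15 and 1.11, so that neither kept its call. The window from 16 to 18 Mb had 1.26 and 1.28. The median ratio over the 108 windows was 1.07, against 1.00 over all windows. The 3 windows called higher held 9.67% of the rise in KOPN-8, while 21 windows were needed to hold 50%. Summed over windows, the rise was 58.9 calls per 10000 in KOPN-8 and 62.3 in 697, which is a similar amount. Without KOPN-8 control 2 the count of higher windows was 10, without clone 1 it was 6 and without clone 2 it was 11. With shares taken outside chromosomes 8, 13, 19 and Y it was 2.

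The windows lower in the KOPN-8 clone held few calls. From 50 to 52 Mb on chromosome 17 the KOPN-8 controls called 6 and 2 regions and the clone 1 and 1, a ratio of mean shares of 0.260, and the ratio of summed calls of 0.253 had an exact 95% counting interval from 0.0262 to 1.27. From 34 to 36 Mb on chromosome 16 the controls called 4 and 1 and the clone 1 and 1, a ratio of mean shares of 0.418, with 0.405 for summed calls and an interval from 0.0386 to 2.48. Such intervals cover counting error only, and in neither window was a difference detectable at this number of calls. From 64 to 66 Mb on chromosome 16 the controls held 2.80 and 2.31 per 10000 and the clone 1.54 and 2.10 (ratio 0.712). No window was called higher in both clones, and 1, from 50 to 52 Mb on chromosome 17, was called lower in both. Over the 1413 windows of the genome these counts were 10 and 50.

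**Figure D2:**
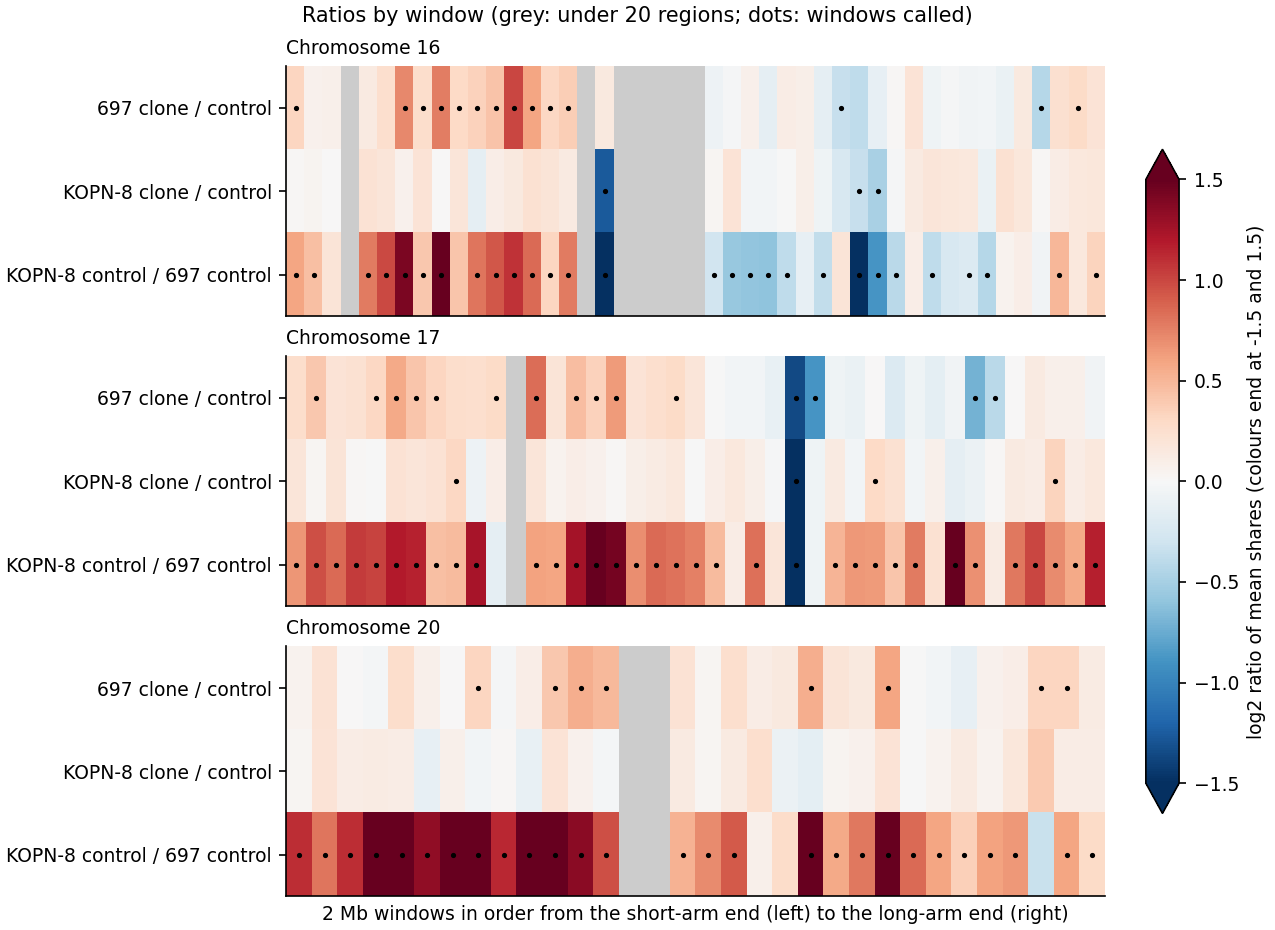
Log2 ratio of mean shares (colour, ending at −1.5 and 1.5) in each 2 Mb window along chromosomes 16, 17 and 20, for the 697 clone over its control, the KOPN-8 clone over its control, and KOPN-8 controls over 697 controls; dots mark windows called and grey marks windows with under 20 regions. The dots of the 697 clone gather on the short arm of chromosome 16 and the first part of chromosome 17, and the KOPN-8 clone has 7 dots in all. In the bottom rows dots on red mark 15 windows of chromosome 16, 33 of chromosome 17 and 27 of chromosome 20. Dots on blue there mark 13 windows of chromosome 16 and 1 of chromosome 17 (50 to 52 Mb).

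The controls of the 2 lines were compared window by window with limma on log2 of calls per 10000, over 1413 windows with Benjamini-Hochberg adjustment. KOPN-8 controls were higher in 75 of the 108 windows (69.4%) and lower in 14 (13%), where 35.7% of all windows were called higher and 38.2% lower. Of the windows called higher, 15 were on chromosome 16, 33 on chromosome 17 and 27 on chromosome 20. Of the 14 called lower, 13 were on chromosome 16, 12 of them on its long arm, and 1 was on chromosome 17. The median log2 difference was 0.13 on chromosome 16, 0.68 on chromosome 17 and 0.87 on chromosome 20, against −0.04 over all windows. Between the clones of the lines, 78 of the 108 windows were higher and 11 lower in KOPN-8, against 33.5% and 38.6% of all windows. The 2 comparisons set different libraries against each other but share the estimate of spread from 1 fit, and 70 windows were called higher and 11 lower in both.

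Of the 6 windows with the largest rise from 697 to KOPN-8 controls, 5 lay on chromosome 20. From 6 to 8 Mb the 697 controls called 4 and 8 of 59 regions and the KOPN-8 controls 39 and 33, or 0.734 and 1.19 against 5.76 and 5.44 per 10000. The log2 difference was 2.46 ± 0.23 (SE, limma, adjusted p = 6.47e-13). The 697 clone, with 0.665 and 1.22 per 10000, overlapped its control. From 12 to 14 Mb the values were 1.28 and 2.23 in the 697 controls and 7.68 and 7.74 in the KOPN-8 controls (log2 difference 2.12 ± 0.17). From 8 to 10 Mb they were 2.02 and 2.38 against 9.15 and 8.24 (log2 difference 1.94 ± 0.13), and from 14 to 16 Mb 1.10 and 1.04 against 3.54 and 3.79 (log2 difference 1.68 ± 0.23). All 8 windows from 0 to 16 Mb on chromosome 20 were higher in the KOPN-8 controls, where the share of calls was 2.68 times that of the 697 controls. In the 697 clone 1 of these 8 windows was called higher, and the ratio of the stretch was 1.08.

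Outside that stretch, the window from 46 to 48 Mb on chromosome 20 differed by 2.13 ± 0.11 on the log2 scale (SE, limma, adjusted p = 9.47e-21). It is also one of the windows named above for the 697 clone. On chromosome 17 the first window by this difference ran from 66 to 68 Mb, with 4.22 and 4.01 calls per 10000 in the 697 controls and 11.8 and 12.8 in the KOPN-8 controls (log2 difference 1.56 ± 0.10). There both clones differed little from their controls, with ratios of 0.964 in 697 and 0.908 in KOPN-8.

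In the other direction, the window from 50 to 52 Mb on chromosome 17 differed by −2.44 ± 0.43 on the log2 scale (SE, limma, adjusted p = 2.16e-06), with 18 and 24 calls in the 697 controls and 6 and 2 in the KOPN-8 controls. The other 5 windows of this order were on chromosome 16. From 34 to 36 Mb the difference was −1.81 ± 0.52, and from 62 to 64 Mb it was −1.71 ± 0.22, with 4.22 and 5.50 per 10000 in the 697 controls and 1.33 and 1.48 in the KOPN-8 controls. From 64 to 66 Mb it was −0.87 ± 0.18. From 50 to 52 and from 52 to 54 Mb it was −0.59 in both, with 9.73 and 9.37 against 6.199 and 6.42 in the first of them. Between 46 and 68 Mb, 9 of 11 windows of chromosome 16 were lower in the KOPN-8 controls and none was higher. That stretch held 1.04% and 0.984% of calls in the 697 controls, 1.00% and 0.986% in clone BM_B of 697 and 0.737% to 0.754% in the KOPN-8 libraries.

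The windows higher in the 697 clone were set beside the comparison of the controls, as the choice of members asks. Both comparisons use the 697 controls, so an overlap between them carries no weight of its own. Of the 31 windows, 27 (87.1%) were higher in the KOPN-8 controls than in the 697 controls, which is 36.0% of the 75. None was lower, and 4 passed in neither direction. These 4 lay at 18 to 20 and 86 to 88 Mb on chromosome 16, 20 to 22 Mb on chromosome 17 and 58 to 60 Mb on chromosome 20. In the whole genome the count was 137 of 178 windows (77.0%). Within chromosomes it was 10 of 12 on chromosome 16, 10 of 11 on chromosome 17 and 7 of 8 on chromosome 20. The other 48 windows higher in the KOPN-8 controls were not called higher in the 697 clone. They include 7 of the 8 from 0 to 16 Mb on chromosome 20 and all 14 such windows from 42 to 82 Mb on chromosome 17. In the window from 24 to 26 Mb on chromosome 16, the log2 difference was 1.03 ± 0.19 between controls (SE, limma, adjusted p = 5.67e-06) and 0.22 ± 0.19 between clones (adjusted p = 0.287). In the window from 46 to 48 Mb on chromosome 20 it was 2.13 ± 0.11 between controls and 1.75 ± 0.11 between clones. All 3 windows higher in the KOPN-8 clone were also higher in the KOPN-8 controls than in the 697 controls.

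Single regions were followed next. A region was gained when it was called in both clone libraries and in no control library of that line, and lost in the reverse case. In 697, 302 of the 8704 regions (3.47%) were gained and 64 (0.735%) lost, where 3.08% and 1.32% of all regions were. In KOPN-8, 319 (3.66%) were gained and 186 (2.14%) lost, where 2.45% and 2.59% of all regions were. Counts moved when 1 library was left out, which loosens the rule. Those gained in 697 came to 463 without clone 2, 746 without control 2 and 1018 without clone 1, and those lost to 157 without control 2, 211 without clone 2 and 349 without control 1. In KOPN-8 the gained came to 616 without control 1, 482 without control 2, 606 without clone 1 and 880 without clone 2, and the lost to 457, 641, 395 and 310 in the same order. Gained regions were spread thinly. Those of 697 lay in 96 of 113 windows with at most 11 in a window, and those of KOPN-8 in 99 windows with at most 12. The 11 lay at 0 to 2 Mb on chromosome 16 and the 12 at 16 to 18 Mb on chromosome 17. Of 1394 regions before 42 Mb on chromosome 17 the 697 clone gained 71 and lost 1. Of 1642 after it the clone gained 27 and lost 27. On chromosome 16 it gained 45 of 733 regions between 8 and 32 Mb and lost none. Between 46 and 68 Mb it gained 30 of 1074 and lost 17.

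Strength within the lists was compared by rank. For a region called in 2 lists, the smaller of its percentiles in those lists was taken, from the fold over background that the authors deposited for each peak. Its median was 25.7 for regions gained and 25.04 for regions lost in 697, against 20.8 and 16.4 over all regions. In KOPN-8 it was 20.6 and 19.2, against 19.8 and 19.5. The smaller of 2 percentiles is low by construction. The median width of regions gained in 697 was 381 bp, and that of regions called in all 8 libraries was 778 bp. The 2040 regions called in all 8 libraries made up 23.4% of the members and 20.4% of all regions.

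Over the whole genome 82 regions were gained and 39 lost in both clones. The 4 of them on the 3 chromosomes that were gained in both were all on chromosome 17, at chr17:38752513-38753190, chr17:25882428-25883127, chr17:79959193-79959491 and chr17:38636477-38637044. Their deposited folds ran from 3.99 to 7.35 in the 697 clone and from 3.55 to 7.01 in the KOPN-8 clone. The 2 lost in both were chr17:69469397-69469675 and chr16:82687562-82687852. Both KOPN-8 controls called 137 (45.4%) of the 302 regions gained in 697, against 27.3% of those gained in the whole genome. By chromosome it was 49 of 133 on 16, 53 of 98 on 17 and 35 of 71 on 20. They called 19 (29.7%) of the 64 lost in 697, against 14.9% in the whole genome. Of all 8704 members the KOPN-8 controls called 5485 and 5048. The share of members called by both was not taken, so these percentages are not read as traits of gained or lost regions.

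The strongest gained region of the 697 clone was chr20:41160112-41160790, 679 bp wide. It had no peak in either 697 control, folds of 11.5 and 14.8 in the 697 clone, 14.1 and 13.96 in the KOPN-8 controls against 12.2 and 13.9 in the KOPN-8 clone. Its folds in the 697 clone thus lay beside those of the other line. The region chr17:33468850-33469528 had the same pattern, with folds of 7.70 and 9.57 in the 697 clone and 8.62 to 11.6 in the 4 KOPN-8 libraries. So had chr16:67522659-67523244, with 7.41 and 7.79 in the 697 clone and 9.03 to 11.7 in KOPN-8. The fourth, chr16:33458895-33459179, had 7.70 and 9.13 in the 697 clone and was called in 1 KOPN-8 control and 1 KOPN-8 clone library, at 4.57 and 4.71. The 2 strongest lost regions were chr16:83065154-83065570, with folds of 11.7 and 9.64 in the 697 controls, and chr16:58283637-58284342, with 9.67 and 10.3. All 4 KOPN-8 libraries called both of these lost regions.

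The strongest regions gained in KOPN-8 were mostly not called in the 697 libraries. They were chr17:36036181-36036783, with folds of 11.4 and 9.41 in the KOPN-8 clone, and chr20:21295845-21296183, with 10.4 and 8.93, and no 697 library called either. The third, chr16:86044252-86044777, had 9.23 and 8.43 and was called in 1 library of the 697 clone at 5.57. The fourth, chr20:48222353-48222831, had 7.91 and 8.40 and was called in 3 libraries of 697. The 2 strongest lost regions were chr20:19055611-19056270, with folds of 7.99 and 8.77 in the KOPN-8 controls, and chr20:50406051-50406323, with 6.26 and 7.11, and neither was called in 697.

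Regions called in 1 line only lay mostly on the side of KOPN-8. In KOPN-8, 1012 regions (11.6%) were called in all 4 libraries and in none of 697, where 7.30% of all regions were. In 697, 297 (3.41%) were called in all 4 and in none of KOPN-8, where 5.85% of all regions were. On chromosome 20 the shares were 16.9% and 2.33%, on chromosome 17 12.2% and 2.01%, and on chromosome 16 7.20% and 5.52%. The window from 46 to 48 Mb on chromosome 20 held 31 regions called only in KOPN-8, the most of any window. The stretch from 46 to 68 Mb on chromosome 16 held 98 called only in 697 and 42 called only in KOPN-8, of 1074 regions. That from 8 to 32 Mb held 14 and 89 of 733. Among regions called only in KOPN-8, the 3 strongest were on chromosome 20, at chr20:57033706-57034233 (folds 15.8 to 17.9), chr20:19731580-19732047 (15.7 to 19.3) and chr20:290991-291426 (15.7 to 17.1). Those called only in 697 were led by chr20:29857013-29857803 (12.9 to 15.6), chr16:51185477-51186607 (11.4 to 14.1) and chr17:53315281-53316104 (11.6 to 12.98).

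**Figure D3:**
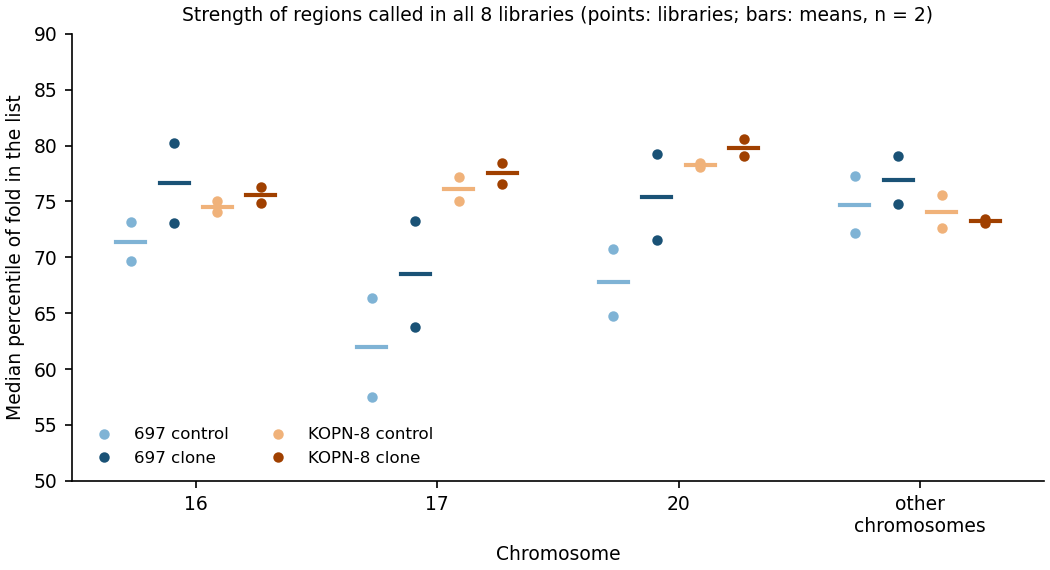
Median percentile of the deposited fold within the list (vertical axis, from 50 to 90) for regions called in all 8 libraries, on chromosomes 16, 17 and 20 and on the other chromosomes; points are libraries and bars are means of 2. On chromosome 17 the 4 KOPN-8 libraries lie between 75.0 and 78.4 and the 4 libraries of 697 between 57.5 and 73.2, while on the other chromosomes the lines overlap.

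Regions that every library calls can differ in strength, which the calls do not show. Their median percentile on chromosome 17 was 57.5 and 66.4 in the 697 controls, 63.7 and 73.2 in clone BM_B of 697, 77.2 and 75.0 in the KOPN-8 controls against 78.4 and 76.6 in the KOPN-8 clone. The lines did not overlap, at 65.2 ± 6.51 in 697 and 76.8 ± 1.41 in KOPN-8 over 713 regions (SD, n = 4 each, exact permutation test, p = 0.0286, adjusted p = 0.0762 over 8 values, which does not pass). The 87 such regions from 0 to 16 Mb on chromosome 20 had 67.8 ± 7.47 in 697 and 84.3 ± 1.36 in KOPN-8 (SD, n = 4 each). The 269 from 46 to 68 Mb on chromosome 16 went the other way, with 77.9 ± 2.62 in 697 and 71.7 ± 1.49 in KOPN-8 (SD, n = 4 each). Both stretches were chosen for the difference of their windows between the lines, so these values are descriptions. Chromosome 16 as a whole had 74.0 ± 4.45 in 697 and 75.1 ± 0.947 in KOPN-8 (n = 4 each, exact permutation test, p = 0.657), and chromosome 20 had 71.6 ± 5.93 and 79.0 ± 1.08 (n = 4 each, exact permutation test, p = 0.114). The 25067 regions on the other chromosomes had 75.8 ± 3.01 and 73.7 ± 1.28. In each group of both lines the library with the longer list had the higher percentile, on all 3 chromosomes and on the other chromosomes. The part of list length in these values was not tested.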

How the data were processed

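ATAC-seq was done on 8 libraries, 2 in each of 4 groups. The submitters' processing notes name Bowtie2, MACS2 and hg19. Not given in the sources used here: versions, settings and how duplicate reads and cut sites were treated. In all, the authors deposited 1 peak list per library, with a value read as a fold over background (a linear ratio) because the 12 commonest values of each list lie on an even grid. That fold is the authors' own and only ranked or filtered peaks within a list. Between 0.946% and 1.04% of peak numbers were missing from a list, so some peaks had been removed after calling.

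The lists were merged at 1 bp shared, and a region was placed in a 2 Mb window by its midpoint. Shares are of all calls of a library. Windows needed 20 regions. Groups came from the sample titles. Lines were compared by exact two-sided permutation of library labels and, per window, with limma 3.58.1 (trend) on log2 of calls per 10000 plus 0.1, over all 8 libraries and 1413 windows without chromosome Y, with an adjusted p of 0.05 as threshold. On simulated windows limma called 48 of 100 changed by 1.5-fold, 83 of 100 changed by 2-fold and 5 of 1213 unchanged. The simulated counts were drawn independently, with the change in all KOPN-8 libraries and no spread between libraries beyond counting error. They therefore give no error rate for the measured windows. With 2 libraries against 2 the smallest permutation p is 0.333.

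The members, tests and lists were chosen with earlier results of these data known. Windows named are, per clone, the 6 with the highest and 3 with the lowest ratio among those called, and for the controls the 6 with the largest difference each way. Regions named are, per line, the 4 gained and 2 lost with the highest smaller percentile, the 3 strongest called in all libraries of 1 line only, and those gained in both clones. Lost regions shared by both clones, other windows in the text and the stretches of several windows were chosen after their values were seen. Genes at regions are not reported, as no hg19 annotation was used. For the same reason neither the edit nor marker genes of the cell type were checked, and planned promoter states of 50 blood cell genes were not run. DNA copy number was not analysed here. Alternatives were equal list lengths (57154 peaks), the strongest 50% of each list, calls covering 50% of a region and unmerged peaks. Others were shares outside chromosomes 8, 13, 19 and Y, other windows, filters, ratios and pseudocounts, and each library left out. Added after seeing the data were the comparison of clones between lines, the strength of shared regions, the segments and the calls of KOPN-8 controls in regions gained in 697.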

Additional observations from a re-analysis of the deposited data

Results flagged for a closer look

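In 7 of the 108 windows the clones of the 2 lines moved in opposite directions, with no overlap between clone and control libraries in either line and with no limit on the ratio. The difference between the lines was not tested in any of them. The clone was above its control in 697 and below it in KOPN-8 in 4 windows. On chromosome 16 the ratios of 697 and KOPN-8 were 1.27 and 0.913 from 20 to 22 Mb and 1.11 and 0.418 from 34 to 36 Mb. On chromosome 17 they were 1.2 and 0.948 from 18 to 20 Mb, and on chromosome 20 they were 1.45 and 0.907 from 40 to 42 Mb. The KOPN-8 value from 34 to 36 Mb rests on 5 calls of its 2 controls and 2 calls of its clone libraries. The clone was below its control in 697 and above it in KOPN-8 in the other 3. These had ratios of 0.955 and 1.13 from 70 to 72 Mb and 0.964 and 1.12 from 74 to 76 Mb on chromosome 16, and 0.866 and 1.17 from 60 to 62 Mb on chromosome 17. By the same reading, 27 windows moved up and 1 moved down in both clones. The chromosomes were chosen for gains in the clones, so these counts carry no weight of their own. Neither they nor the 7 were set beside all windows of the genome.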

How the results depend on the processing

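The share of calls in the 697 clone over its control was 1.12 with equal list lengths and 1.15 with calls covering 50% of a region. In KOPN-8 this ratio was 1.04 with shares taken outside chromosomes 8, 13, 19 and Y. The difference between the lines ranged from 2.32 to 2.58 percentage points with 1 library left out, and the exact permutation test of 3 libraries against 4 cannot go below p = 0.0571. With the strongest 50% of each list, 156 regions were gained and 40 lost in 697, 180 were gained and 112 lost in KOPN-8, 15 windows were higher in the KOPN-8 clone and 8 lower in the KOPN-8 controls than in those of 697. Leaving out 1 library loosens the rule for a region. The count then ran from 395 without 697 control 1 to 1018 without 697 clone 1 for those gained in 697, from 93 without 697 clone 1 to 349 without 697 control 1 for those lost, from 482 to 880 for those gained in KOPN-8 and from 310 to 641 for those lost. With calls covering 50% of a region, 9 windows were higher in the KOPN-8 clone. Windows of 1 Mb gave 12 lower in the 697 clone, 16 higher in the KOPN-8 clone and 124 higher in the KOPN-8 controls. Windows of 5 Mb gave 13 higher and 2 lower in the 697 clone, 0 and 1 in the KOPN-8 clone, and 37 higher and 7 lower in the KOPN-8 controls. With at least 50 regions in a window, 18 were higher and 3 lower in the 697 clone and 2 lower in the KOPN-8 clone. With no limit on the ratio the counts were 57 and 13 in 697 and 49 and 8 in KOPN-8, and with a ratio of 1.5 they were 7 and 3 in 697 and 0 and 2 in KOPN-8. With 1 library left out, windows lower in the 697 clone ran from 6 to 10, the latter without 697 clone 2, and those higher in the KOPN-8 clone from 4 to 11. The ratio of the window from 34 to 36 Mb on chromosome 16 in KOPN-8 was 0.958 without KOPN-8 control 1, and that from 50 to 52 Mb on chromosome 17 was 0.479. The causes of these changes were not tested. Of the 31 windows higher in the 697 clone, 29 were among the 39 called with equal list lengths, 14 among the 24 called with the strongest 50% of each list and 24 among the 34 called without 697 control 2. The main fit did not pair the samples by replicate number. Correlations of deviations ran from −0.164 to 0.245, the highest between 697 control and 697 clone, so a pairing within 697 is not excluded. The fit with a replicate block gave 75 windows higher in the KOPN-8 controls, as without it. No chromosome ratio or difference turned in direction under these alternatives, nor did a window value in the comparison for which the window was named. Arms and stretches were not followed under them. On the long arm of chromosome 17 the 697 ratio of clone over control ran from 0.971 to 1.04 over pairs of libraries. The balance of counts in KOPN-8 did turn. Without KOPN-8 control 2, 482 regions were gained and 641 lost, and 10 windows were higher and 5 lower in the clone. With the strongest 50% of each list 15 windows were higher and 3 lower.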
